A study of Mus musculus with 8 samples.

Results

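Bak1 and Bcl2l11, a pair of genes that promote programmed cell death, were measured in mouse forebrain at embryonic day 9.5, by 1 probe set each on whole-genome Affymetrix arrays. They were picked by gene symbol from the authors' deposited comparison, which is the only source of gene names used here, and are 2 of the 247 genes named there and 2 of its 330 probe sets. Each array holds 45101 probe sets, of which 27022 were bright enough to be tested. Of the 8 arrays 4 came from VEGF120 embryos, whose knock-in allele puts a cDNA of the VEGF120 isoform into the VEGF-A gene, so that they make VEGF120 alone, without VEGF164 or the other isoforms. They were set against 4 arrays from wild type embryos, which carry the unaltered gene. Both genotypes were on a C57Bl/6 background, and the forebrain was microdissected as whole tissue. The labels do not say whether an array stands for a single embryo, a litter or a pool, so every difference and p-value is read against the spread between arrays alone, part of which may be technical. The expression of Vegfa itself is not analysed here.

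Bak1 encodes Bak, a protein of the outer mitochondrial membrane that, once activated, forms pores through which cytochrome c escapes and switches on the caspases. Bcl2l11 encodes Bim, a BH3-only protein that binds and blocks the pro-survival Bcl-2 proteins and can activate Bak and its relative Bax directly. Bim thus acts upstream of Bak in the same pathway. Loss of growth factor support is a well-known trigger of Bim, through FOXO transcription factors on its gene and through ERK signalling, which marks the Bim protein for destruction. In the developing nervous system this pathway removes surplus progenitors and neurons.

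The deposited comparison places Bak1 on chromosome 17, with 1 RefSeq transcript, and Bcl2l11 on chromosome 2, with 3. Affymetrix marks the Bcl2l11 probe set, 1426334_a_at, as one that detects several transcripts of the gene, so its signal does not separate them. The Bak1 probe set is 1418991_at. RefSeq (GRCm38.p6) gives 1 start window for Bak1 and 2 for Bcl2l11, and the arrays cannot tell which Bcl2l11 start was in use. They are shown because Bcl2l11 is a known FOXO target. Each runs from 250 bases before the start to 50 bases after it, and capitals mark GTAAACA, the core of the FOXO binding motif, searched on both strands; it overlaps no GC box.
Bak1, chr17:27028578-27028877, minus strand: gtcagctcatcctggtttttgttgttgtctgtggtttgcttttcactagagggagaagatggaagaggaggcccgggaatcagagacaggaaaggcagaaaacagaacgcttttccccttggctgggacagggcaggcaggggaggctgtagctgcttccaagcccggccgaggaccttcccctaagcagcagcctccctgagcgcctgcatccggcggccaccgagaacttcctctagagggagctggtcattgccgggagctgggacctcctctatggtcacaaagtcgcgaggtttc
Bcl2l11, chr2:128125788-128126087, plus strand: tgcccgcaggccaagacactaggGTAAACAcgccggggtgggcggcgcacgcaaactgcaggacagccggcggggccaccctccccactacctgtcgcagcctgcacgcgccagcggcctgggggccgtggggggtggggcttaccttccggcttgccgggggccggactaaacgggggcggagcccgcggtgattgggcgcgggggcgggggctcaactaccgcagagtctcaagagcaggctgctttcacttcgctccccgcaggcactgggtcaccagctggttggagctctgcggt
Bcl2l11, chr2:128127325-128127624, plus strand: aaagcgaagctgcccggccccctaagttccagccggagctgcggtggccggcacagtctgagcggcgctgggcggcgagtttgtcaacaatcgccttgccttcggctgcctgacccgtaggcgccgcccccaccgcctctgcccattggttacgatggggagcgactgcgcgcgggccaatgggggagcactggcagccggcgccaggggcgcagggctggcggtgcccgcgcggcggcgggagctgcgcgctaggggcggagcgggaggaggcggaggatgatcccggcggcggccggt
The upstream Bcl2l11 window holds 1 FOXO core and the other windows hold 0. Of all 32851 start windows in the table, 3.65% hold it. The GC box core GGGCGG, on either strand, occurs 3 times in each Bcl2l11 window and 0 times in that of Bak1, and 35.7% of all windows hold at least 1. The Bcl2l11 windows are 71.0% and 74.0% G or C, and the Bak1 window is 58.3%. A match of letters describes the window and is not a measured binding site.

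The array of VEGF120 replicate 1 read both genes at wild type levels, unlike the other 3 VEGF120 arrays, and the values below are therefore given with and without it. Its own array measures were inside the range of the other 7 arrays, a range that includes the wild type arrays. Over the tested probe sets its mean Pearson correlation with the wild type arrays was 0.972. Wild type arrays had 0.969 to 0.973 with one another, and VEGF120 replicates 2 to 4 had 0.961 to 0.964 with wild type. The mean correlation of VEGF120 replicate 1 with the other VEGF120 arrays was 0.967, and that of replicates 2 to 4 was 0.959 to 0.965. VEGF120 replicate 1 had a median signal of 64.2, where the other VEGF120 arrays ran from 62.3 to 68.5 and the wild type arrays, all lower, from 56.1 to 59.6. With each array centred on its median, the VEGF120 minus wild type difference (log2) was 0.87 for Bak1 and −0.82 for Bcl2l11, against 1.00 and −0.69 on the deposited scaling. Its ratio of 3′ to 5′ signal, a measure of RNA integrity, was 0.40 for β-actin (log2; 0.30 to 0.69 on the others) and −0.33 for Gapdh (−0.37 to −0.04). Both upper ends belong to VEGF120 replicate 4, which stood apart in this measure, since the next highest arrays read 0.43 for β-actin and −0.26 for Gapdh. Without VEGF120 replicate 4 the VEGF120 minus wild type difference was 0.95 for Bak1 and −0.62 for Bcl2l11.

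Bak1 was higher on 3 of the 4 VEGF120 arrays than on any wild type array. Its MAS5 signal, a linear measure of brightness, was 131, 421, 366 and 311 on VEGF120 replicates 1 to 4, against 149, 132, 126 and 129 on wild type replicates 1 to 4. VEGF120 replicate 1 lay inside the wild type range and the other 3 lay far above it, so the groups overlapped through 1 array. On the log2(signal + 16) scale used for all differences, which understates those of dim probe sets, Bak1 averaged 8.23 ± 0.70 in VEGF120 and 7.23 ± 0.10 in wild type (SD, n = 4 each). The difference, VEGF120 minus wild type, was 1.00 ± 0.27 (SE), or 2.00-fold. Without VEGF120 replicate 1 it was 1.34 ± 0.16 (SE), or 2.53-fold, and the VEGF120 mean was 8.57 ± 0.21 (SD, n = 3). VEGF120 replicate 1 differed from the wild type mean by −0.03 and from the mean of the other VEGF120 arrays by −1.36.

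Bcl2l11 showed the opposite pattern on the same arrays. Its MAS5 signal was 142, 72.3, 76.1 and 73.0 on VEGF120 replicates 1 to 4, against 125, 155, 147 and 182 on wild type replicates 1 to 4. Again VEGF120 replicate 1 lay inside the wild type range, and the other 3 lay below every wild type array. These 3 were close together, within 0.06 on the log2 scale, while the wild type arrays spanned 0.49. Bcl2l11 averaged 6.69 ± 0.41 in VEGF120 and 7.38 ± 0.20 in wild type (log2, SD, n = 4 each), with VEGF120 minus wild type at −0.69 ± 0.21 (SE), which is 1.62-fold lower. Without VEGF120 replicate 1 the difference was −0.90 ± 0.19 (SE), or 1.86-fold lower, with a VEGF120 mean of 6.49 ± 0.03 (SD, n = 3). Both genes are of middling brightness, at percentiles 72.1 (Bak1) and 63.8 (Bcl2l11) of all probe sets. In whole tissue, fewer cells that express a gene and less of its RNA per cell cannot be told apart.

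**Figure D1:**
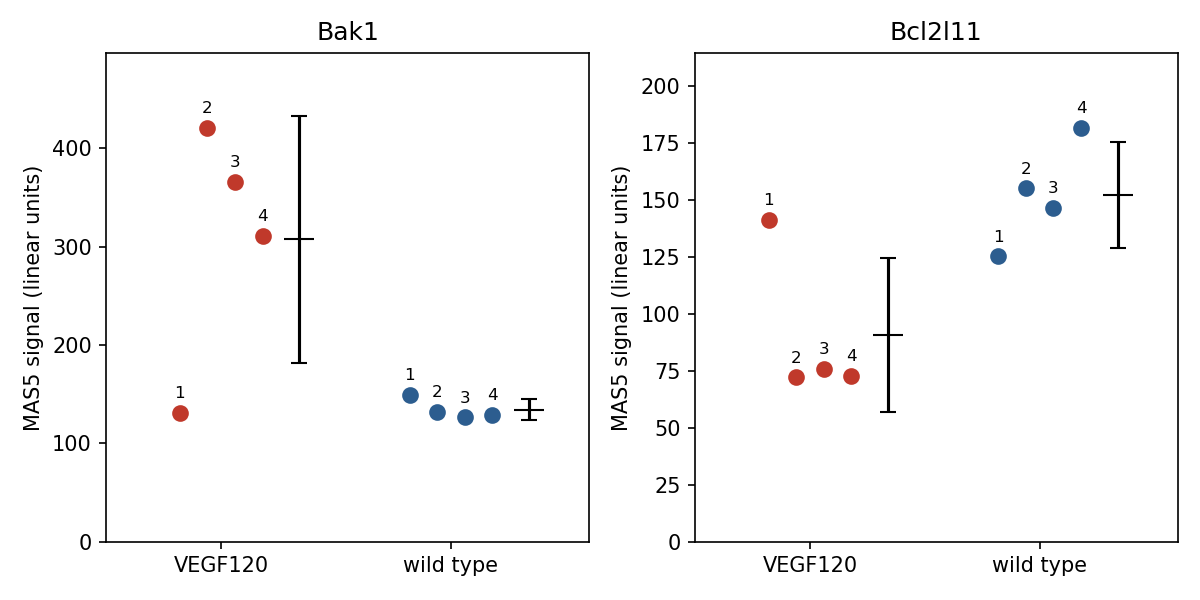
MAS5 signal (linear units, from 0) of Bak1 and Bcl2l11 on each of the 4 VEGF120 and 4 wild type arrays, numbered by replicate; the bars beside the points are mean ± SD (n = 4). VEGF120 replicates 2 to 4 lie above wild type for Bak1, at 311 to 421, and below it for Bcl2l11, at 72.3 to 76.1, while VEGF120 replicate 1 lies at 131 and 142, inside the wild type range of both.

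The genes were listed by the study for a low p on these same arrays, so their differences are a description and carry no p-value as support. In the fit over all probe sets, limma called 0 of 27022 at an adjusted p under 0.05 (0%), and the methods' t-test, the unpaired test that the authors' table names, run here on the same values, also called 0. At an unadjusted p under 0.05, limma found 1714 higher (6.34%) and 924 lower (3.42%), and the methods' t-test found 2246 in all. After quantile normalization the limma split was 1167 higher and 1132 lower, and after centring each array on its median it was 602 and 3099. The groups did not overlap for 869 probe sets higher in VEGF120 (3.22%) and 482 lower (1.78%), and neither Bak1 nor Bcl2l11 was among them. Without VEGF120 replicate 1, 1938 were higher without overlap (7.17%), Bak1 included, and 1105 lower (4.09%), Bcl2l11 included. In that fit the Bak1 probe set was the 1 called (0.0037%), at an adjusted p of 0.0347 in limma with Benjamini-Hochberg adjustment, against 0.277 to 0.791 over the other alternatives, and Bcl2l11 had 0.189. The array was left out for its own Bak1 and Bcl2l11 values, so this call is no support for either gene.

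Set side by side on each array, the genes formed a pair of clusters. VEGF120 replicates 2, 3 and 4 combined high Bak1 with low Bcl2l11, and the remaining 5 arrays, VEGF120 replicate 1 among them, combined low Bak1 with high Bcl2l11. The log2 signal of Bak1 minus that of Bcl2l11 on the same array is not altered by any scaling of a whole array. It was −0.11, 2.54, 2.26 and 2.09 on VEGF120 replicates 1 to 4, against 0.25, −0.24, −0.21 and −0.49 on wild type replicates 1 to 4. VEGF120 replicate 1 lay inside the wild type range for this measure too. Its mean was 1.70 ± 1.22 in VEGF120 and −0.17 ± 0.31 in wild type (SD, n = 4 each), and 2.30 ± 0.23 in VEGF120 without replicate 1 (SD, n = 3). Only its change between arrays can be read, since probe sets differ in how strongly they bind.

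**Figure D2:**
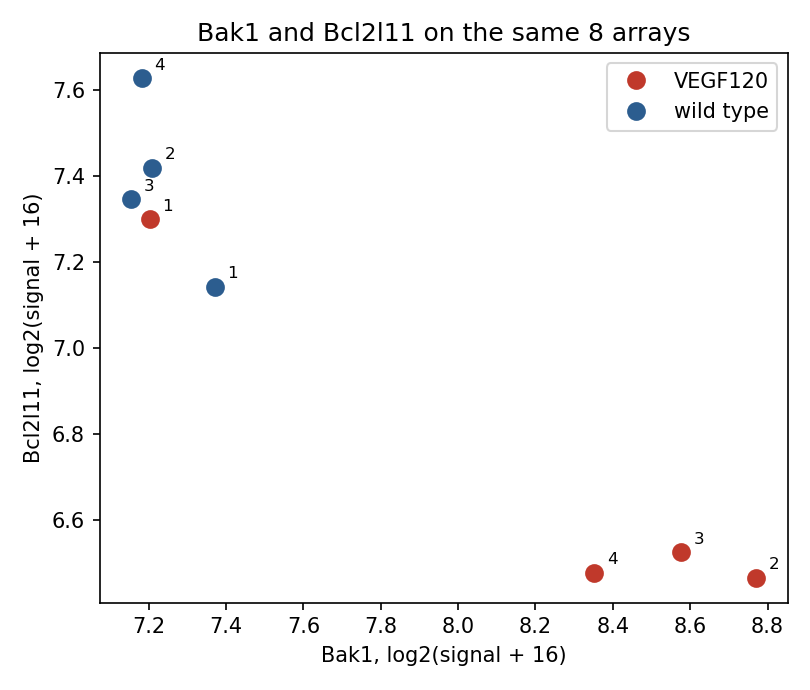
Log2(signal + 16) of Bak1 (horizontal) against Bcl2l11 (vertical) on the 8 arrays, numbered by replicate and coloured by genotype. VEGF120 replicates 2 to 4 lie at the lower right and VEGF120 replicate 1 lies among the 4 wild type arrays at the upper left.

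The authors' deposited table gives the same directions from another summary of the probes (PLIER, quantile normalized). It was taken throughout to rest on the same arrays, though its columns for single arrays matched no sample label. It lists Bak1 as 1.80-fold up, with means of 6.85 in VEGF120 and 6.00 in wild type (the authors' log2 signal) and an unadjusted p of 0.0319 in the methods' t-test. For Bcl2l11 the authors' deposited table has 1.68-fold down, means of 5.32 in VEGF120 and 6.07 in wild type, and a p of 0.0157. The authors' SD of Bak1 was 0.57 in VEGF120 and 0.21 in wild type, and that of Bcl2l11 was 0.40 in VEGF120 and 0.20 in wild type, so VEGF120 was the more variable group for both genes in this summary as well. Neither gene sits at the edge of the list or at its top. In the authors' deposited table Bak1 ranks 64 of 139 probe sets higher in VEGF120 by fold and Bcl2l11 ranks 107 of 191 lower, and the smallest folds listed, just inside the minimum of 1.5, are 1.501 up and 1.502 down. Probe sets outside that minimum are not listed.

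VEGF120 replicate 1 was the VEGF120 array most often found inside the wild type range, and not for Bak1 and Bcl2l11 alone. It was inside the range of the 4 wild type arrays for 59.6% of the 27022 tested probe sets, compared with 49.5%, 51.7% and 43.7% for VEGF120 replicates 2, 3 and 4. The Bak1 pattern, replicate 1 inside that range and the other 3 VEGF120 arrays above it, was shared by 897 probe sets (3.32%). The Bcl2l11 pattern, with the other 3 below it, was shared by 523 (1.94%). With replicate 2, 3 or 4 as the array inside the range, the pattern of Bak1 was found for 678 (2.51%), 375 (1.39%) and 335 (1.24%) probe sets and that of Bcl2l11 for 364 (1.35%), 231 (0.855%) and 223 (0.825%). Replicate 1 thus had the highest counts, with replicate 2 next. Its total over both patterns was 1420 on the deposited scaling, 1347 after quantile normalization and 1395 after median centring, and the highest of the 4 arrays each time. The split between the patterns turned with the scaling: replicate 1 had 746 with the other arrays above and 601 below after quantile normalization, and 418 above and 977 below after median centring. Which pattern is the more common therefore cannot be read from these counts. The other 118 bright probe sets of the deposited list include 17 with replicate 1 in this position, 14 with replicate 2, 3 with replicate 3 and 12 with replicate 4. These are counts of arrays on probe sets that share RNA, with no test.

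**Figure D3:**
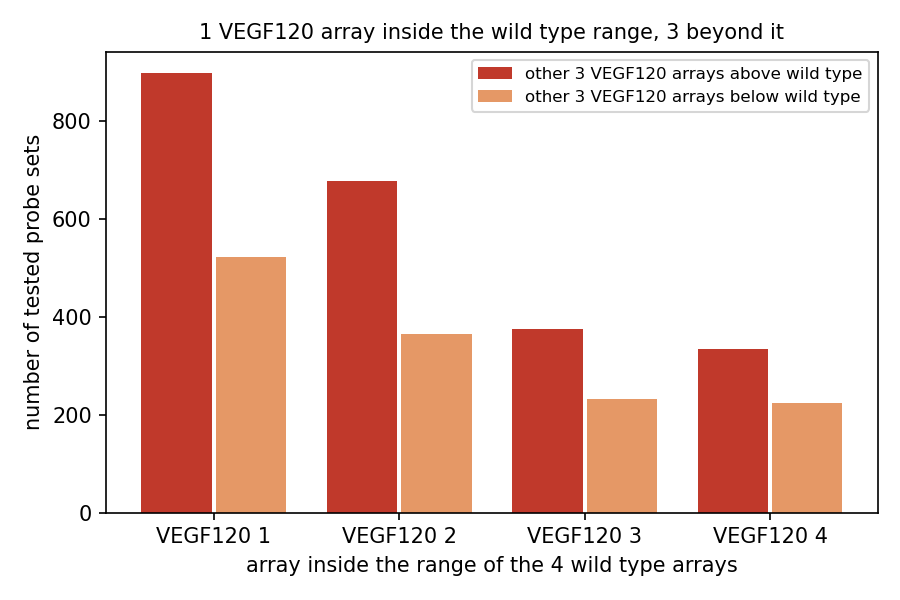
Number of the 27022 tested probe sets (vertical axis) on which 1 VEGF120 array lay inside the wild type range while the other 3 lay all above it (dark bars, the Bak1 pattern) or all below it (light bars, the Bcl2l11 pattern), by which VEGF120 array was inside. The bars are highest for VEGF120 replicate 1, at 897 and 523 on the deposited scaling; after median centring its dark bar would be the lower one, at 418 against 977.

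Across the 8 arrays Bak1 and Bcl2l11 were each other's most opposed gene among those compared. Their opposite directions and the departure of VEGF120 replicate 1 were known when the pair was taken up. Their correlation restates this and is no support. Clone names (Rik and Gm symbols) were passed over among the other 97 bright named probe sets of the deposited list. Of the rest, Bcl2l11 had the lowest Pearson correlation of log2 signal with Bak1, at −0.96, and Bak1 the lowest with Bcl2l11. The genes most like Bak1 were Rcor2, a corepressor that works with the demethylase LSD1, at 0.95, Cux1, a homeobox transcription factor, at 0.88, and Pfkl, a glycolytic enzyme, at 0.87. Those most like Bcl2l11 were Map1b, a microtubule-associated protein of growing axons, at 0.95, the secreted Wnt antagonist Sfrp1, at 0.92, and Ints8, a subunit of the Integrator complex, at 0.92. These values describe 8 arrays that fall into a pair of clusters, over genes listed for differing between the genotypes. Rcor2 followed Bak1 array by array, with log2 signals of 9.42, 10.70, 10.35 and 9.83 on VEGF120 replicates 1 to 4, against 9.31 to 9.45 in wild type. Its VEGF120 replicate 1 also lay inside the wild type range. Map1b read 8.69, 7.37, 7.95 and 7.79 on VEGF120 replicates 1 to 4, against 8.19 to 8.99 in wild type, with VEGF120 replicate 1 again inside that range. Pfkl did not share this, and read 11.54 on VEGF120 replicate 1, above the 10.90 to 11.34 of wild type. All of these genes were picked for following Bak1 or Bcl2l11 over the same arrays, so a likeness on VEGF120 replicate 1 is partly built in.

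VEGF120 replicate 1 did not read like wild type for every listed gene. Head mesenchyme lies next to the forebrain, and 4 of 11 markers of mesenchyme and neural crest were named in the deposited list, all 4 higher in VEGF120 by the authors' deposited table, which chose them on these arrays. Values of 3 are given here. Prrx1 read 9.35 on VEGF120 replicate 1, 9.16 to 9.84 on the other VEGF120 arrays and 8.44 to 8.84 in wild type (log2). Six2 read 8.15 on VEGF120 replicate 1, 8.42 to 8.54 on the others and 7.49 to 8.09 in wild type, and Alx1 read 8.72 on VEGF120 replicate 1, 8.001 to 8.48 on the others and 6.80 to 8.03 in wild type. The groups overlapped for Alx1 through VEGF120 replicate 2, which lay below wild type replicate 2, and did not overlap for Prrx1 and Six2. These 3 were above every wild type array on VEGF120 replicate 1, and none was near 0. Their summed MAS5 signal 1310, 1122, 1585 and 1180 on VEGF120 replicates 1 to 4, against 590.1, 943, 642 and 719 on wild type replicates 1 to 4. Placed on a line where 0 is the wild type mean and 1 the mean of VEGF120 replicates 2 to 4, replicate 1 stood at −0.02 for Bak1 and 0.09 for Bcl2l11, and at 0.94 for Prrx1, 0.58 for Six2 and 1.57 for Alx1. Its median place over the other 118 bright probe sets of the list was 0.74, and 24 of them were under 0.25. With VEGF120 replicate 2 placed in the same way against the other 3 VEGF120 arrays, the median was 0.80 and 27 were under 0.25. A place near wild type is thus not particular to Bak1 and Bcl2l11 or to replicate 1. Bak1 and Bcl2l11 were at wild type levels on VEGF120 replicate 1. On that array Prrx1 was inside the range of the other VEGF120 arrays, Six2 lay between the groups and Alx1 lay above both. The part of mesenchyme in the Bak1 and Bcl2l11 differences was not tested. Markers of forebrain neuroepithelium, endothelium, erythroid cells, macrophages and surface ectoderm were not named and are not analysed here.

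**Figure D4:**
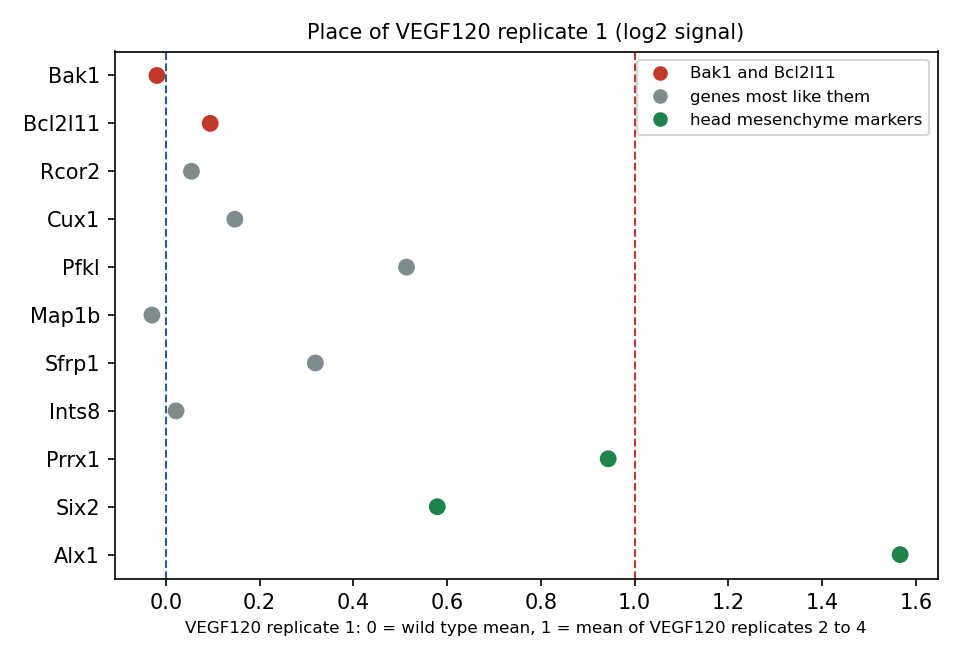
Place of VEGF120 replicate 1 between the wild type mean (0, dashed line) and the mean of VEGF120 replicates 2 to 4 (1, dashed line) in log2 signal, for Bak1 and Bcl2l11, the 6 genes most like them and 3 head mesenchyme markers. Bak1 and Bcl2l11 lie at −0.02 and 0.09, and the markers between 0.58 and 1.57; the 6 genes were picked for following Bak1 or Bcl2l11, so their places are not independent.

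Little else of the cell death pathway could be read by name. Of 72 genes in 7 lists (pro-survival Bcl-2 proteins, pore-forming effectors, BH3-only proteins, caspases with their activators and inhibitors, partners of Bak, p53 targets and regulators of Bcl2l11) Bak1 and Bcl2l11 were the 2 named, and the others, such as Bax and Mcl1, are not analysed here. The deposited gene ontology table ties 8 cell death terms to Bak1 and 4 to Bcl2l11, and all 4 terms of Bcl2l11 are among those of Bak1. It ties such terms to 15 further listed genes with 16 probe sets, which the authors chose on these arrays, 5 higher and 11 lower in VEGF120 by the authors' deposited table. The whole list has 139 higher and 191 lower. The group of 15 genes was put together after the files were seen. Of the 16, 10 were bright, 3 of them higher and 7 lower in MAS5 signal, and 0 had an adjusted p under 0.05 in limma. Of the 6 dim ones, 4 had the authors' direction in MAS5 signal. The differences of the 10 bright ones ran from −1.03 to 1.16. Txnip, an inhibitor of thioredoxin that sensitises cells to oxidative stress and is annotated as promoting apoptosis, differed by −0.66 ± 0.20 and −1.03 ± 0.31 (SE) on its probe sets. Ggct, annotated to the release of cytochrome c, differed by −0.51 ± 0.14 without overlap between the groups. Dlx1, a ventral forebrain homeobox gene annotated as restraining neuron death, was higher by 0.79 ± 0.20, also without overlap. Over all tested probe sets, 1.78% were lower and 3.22% higher in VEGF120 without overlap. VEGF120 replicate 1 was inside the wild type range for 4 of these 10 probe sets. That is close to its share of 40.7% over the 118 bright listed probe sets besides Bak1 and Bcl2l11, and its share of all tested was 59.6%. For Txnip VEGF120 replicate 1 was below every wild type array, at 7.57 against 8.24 to 8.62 and at 5.21 against 6.71 to 7.57.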

How the data were processed

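Signals of 4 VEGF120 and 4 wild type forebrain arrays were used. The deposited intensity values are linear MAS5 signals, computed by the authors in Expression Console, per the submitters' processing notes. Their versions were not given in the sources used here. Each array has a 2% trimmed mean of 250.0, and any pair of arrays shared at most 0.0044% of its values. The deposited comparison holds unsigned fold changes, p-values (0.05 or less) and group means and SDs of quantile-normalized log2 PLIER signal, which were entered as a score. It keeps folds from 1.5 upward and has 3 coded groups, per the file headers. The genotypes behind the codes came from a heading in the deposited enrichment output, which was otherwise unused. A further 12 per-array columns matched no sample label and were not used.

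Of 330 listed probe sets 251 had 1 current symbol, 13 had several and 66 had none. A RefSeq table (GRCm38.p6) held the Entrez identifiers of 219 and changed 27 symbols. Signals were taken as log2(value + 16). The 64 control probe sets and those under the 40th percentile of mean log2 signal (36.9 on the linear scale) were left out. VEGF120 was compared with wild type by limma 3.58.1 (R 4.3.3, intensity trend, no replicate block) over 27022 probe sets, with Benjamini-Hochberg adjustment and a threshold of 0.05. The fit was tested on simulated arrays. Figures used matplotlib 3.10.9 in Python 3.11.15.

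The genes, the lists and the alternatives were chosen with earlier results of these data known. The text names both genes, all named members of their protein families, and for each the 3 named bright genes with the highest Pearson correlation over the 8 arrays. Clone names were passed over in that ranking. The value of 1 further mesenchyme marker is not reported here. The further cell death genes, the marker values and the counts by array were added after the data were seen.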

Additional observations from a re-analysis of the deposited data

Results flagged for a closer look

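Bcl2l11 read 7.30 (log2 signal) on VEGF120 replicate 1 and 6.46 to 6.52 on the other 3 VEGF120 arrays, a gap that took up 0.93 of the range of the 4 arrays. It was flagged because 1 array lay far from the rest of its group. It was the 1 such case in 28 groups of 4 arrays examined, over Bak1, Bcl2l11, 9 other named genes and 3 array measures, where chance gives about 1.4. The Bak1 value of the same array was not flagged by that measure, because the other 3 VEGF120 arrays were spread more widely. The departure of VEGF120 replicate 1 for both genes was known beforehand. Most of the 9 other genes were picked for following Bak1 or Bcl2l11, so the count is no test.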

How the results depend on the processing

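Both genes kept their direction under every alternative run for them: 1 or 64 added in place of 16, quantile normalization, median centring, array weights, the replicate block, each array left out and the authors' deposited folds. Each move was less than the pooled SD of the arrays. With an array left out this outcome was fixed in advance, because that SD includes the array, so it is no sign of stability. Bak1 ran from 0.81 (without VEGF120 replicate 2) to 1.34 (without VEGF120 replicate 1), and Bcl2l11 from −0.90 (without VEGF120 replicate 1) to −0.50 (64 added). Neither the brightness filter, the replicate block, the variance model nor the methods' t-test can alter a difference of means. The number of probe sets past the adjusted threshold was 0 in limma, and ranged from 0 to 1 with an array left out. At an unadjusted p under 0.05 the count was 2638, and leaving out an array gave 1653 (wild type replicate 3) to 3225 (VEGF120 replicate 1). Its lower part was 509 when wild type replicate 3 was left out, 507 for replicate 4 and 3099 after median centring. The cause was not tested. Same-numbered arrays deviated together (correlation over 0.1) in 1 of 4 pairs, with correlations from −0.13 to 0.11. The labels give no pairing, and values this weak cannot show whether there was one. A limma fit with the replicate numbers as a replicate block gave 2358 at an unadjusted p under 0.05, 0 of them after adjustment. The counts by array under other scalings were chosen after seeing the data. Alternatives for the cell death lists, and averaging several probe sets per gene, were not run, because the deposited names give those lists no members besides Bak1 and Bcl2l11, with 1 probe set each. Each value rests on 1 probe set and 8 arrays, which limits its precision.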
